A study of Mus musculus with 6 samples.

Results

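The dermal-epidermal junction anchors the basal layer of the epidermis to the dermis, and 8 genes of its hemidesmosomes and anchoring fibrils were followed here in mouse skin: Col7a1, Col17a1, Itga6, Itgb4, Lama3, Lamb3, Dst and Plec. They were taken by name from the 55291 genes of the deposited count table, and all 8 were found and passed the filter on low counts that left 19971 genes to test. Dorsal skin of mice aged 6 weeks (day 40 in the labels) was sequenced after ribosomal RNA depletion, in 3 libraries of wild type C57BL/6 skin and 3 libraries of strain B6.Cg-Fbn1Tsk/J skin, whose genotype the labels write as Fbn1+/- and which is called Tsk here. Fbn1 encodes fibrillin, a microfibril protein of the dermis, and the tight-skin allele is known as an internal duplication rather than a loss of the gene, so reading the Tsk samples as carriers of 1 duplicated copy is an assumption. The labels do not say that each library came from a separate mouse, so the p-values measure the spread between these libraries, which may be in part technical. Whole skin with the muscle beneath it was homogenised, so fewer cells of a type and less RNA per cell cannot be told apart.

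A hemidesmosome is a rivet in the basal cell membrane. Inside the cell the plakins plectin (Plec) and BPAG1 (Dst) tie it to keratin filaments. An integrin of the Itga6 and Itgb4 chains and the transmembrane collagen Col17a1 cross the membrane. Outside, they hold the epidermal laminin, which holds the Lama3 and Lamb3 chains and in turn binds collagen VII (Col7a1), the protein of the anchoring fibrils that loop into the dermis. In human patients, loss of these proteins causes epidermolysis bullosa, in which the skin blisters at this layer.

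Library totals ran from 17561453 to 19219814 counts. Fbn1 itself differed between the groups, which does not test the genotype as labelled: the wild-type libraries held 4684, 5420 and 4765 of its counts and the Tsk libraries 27971, 43910 and 37855, each above all of wild type. Across all genes tested, 3.42% passed the threshold (edgeR, Benjamini-Hochberg adjusted p under 0.05), 2.72% higher and 0.696% lower in Tsk, and the number of calls rested on single libraries, from 63 without wild-type replicate 3 to 1381 without wild-type replicate 1. The split between rises and falls depended on the scaling, since with library totals alone 1695 of 1791 calls were higher, against 544 of 683 here. With limma-trend on the deposited TMM values, which changes both test and values, 1166 of 1279 were. Levels are given as CPM, the counts of a gene relative to the TMM-adjusted depth of its library, as mean ± SD of 3 libraries, and fold changes are log2 of Tsk over wild type ± SE.

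Of the 8 junction genes, 1 passed the threshold, Col7a1, which was lower in Tsk skin. Of all genes tested, 0.696% passed in that direction. The other 7 did not pass the threshold, although the fitted value of each was also below 0, from -0.62 for Lama3 to -0.26 for Itga6. The median of the 8 was -0.46, beside -0.03 for all genes tested, of which 53.0% were below 0. The 3 genes Col7a1, Dst and Plec showed no overlap, with all 3 Tsk values under the lowest wild-type value, a pattern that 10.6% of all genes tested showed. An unadjusted edgeR p under 0.05 was found for 5 of the 8, all lower, and for 7.94% of all genes in that direction. The members were chosen with earlier results of these data known, so no test was made over the list.

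**Figure D1:**
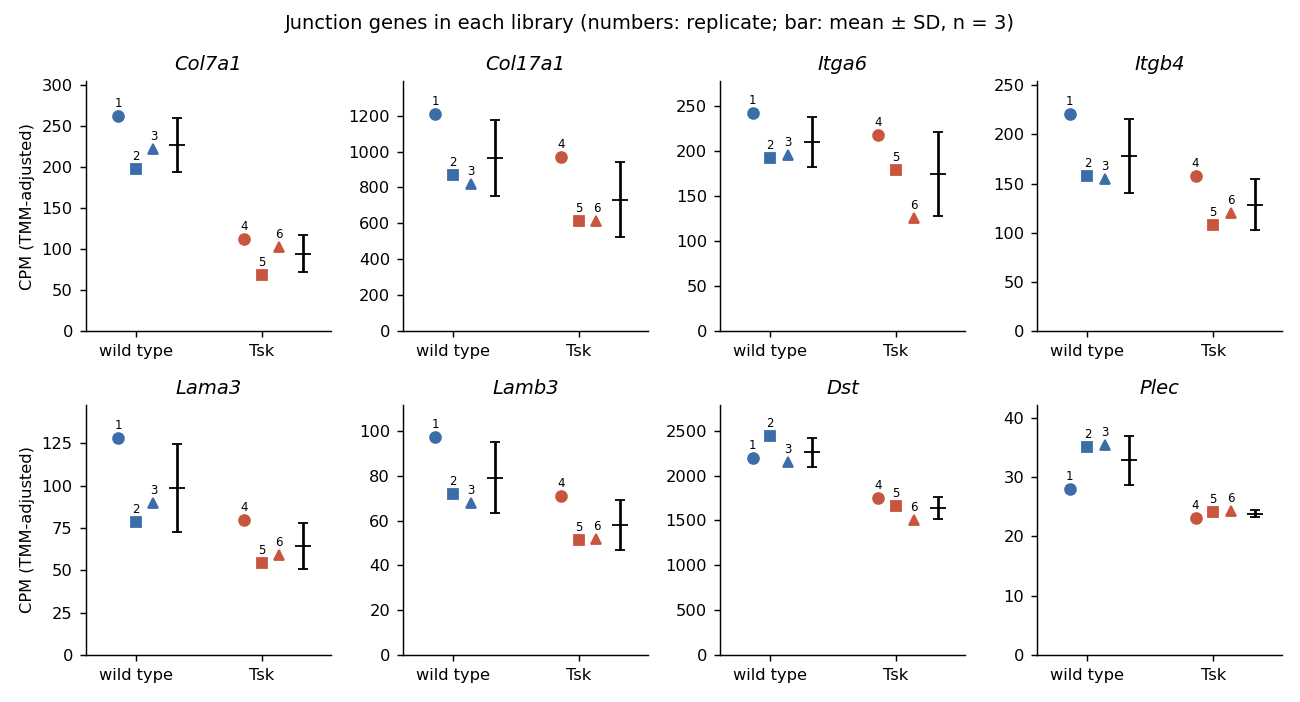
Level of each junction gene in CPM (vertical axes, each from 0) in the 3 wild-type and 3 Tsk libraries. Points are single libraries numbered by replicate, and black bars give the mean ± SD. Col7a1, Dst and Plec show no overlap between the groups, while for Col17a1, Itga6, Itgb4, Lama3 and Lamb3 Tsk replicate 4 lies above at least 1 wild-type library.

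Col7a1 encodes the single chain of collagen VII, which keratinocytes and, to a lesser extent, fibroblasts secrete. The gene lies on chromosome 9 from 108953586 to 108984875 on the plus strand of mm10. Wild-type libraries held 4724, 3062 and 3573 of its counts, and Tsk libraries 2157, 1472 and 2189. As CPM these were 263, 198 and 222 in wild type and 112, 68.8 and 103 in Tsk, so the lowest wild-type library stood 1.77-fold above the highest Tsk library. The mean went from 228 ± 32.6 to 94.5 ± 22.7 CPM. Col7a1 fell by 1.27 ± 0.21 on the log2 scale (edgeR adjusted p = 0.0186, 95% interval -1.74 to -0.79), which leaves Tsk at 0.415 of the wild-type level. Its value stayed between -1.44 and -1.0 under all 21 alternative settings. The call was lost without wild-type replicate 3 (-1.28, edgeR adjusted p = 0.0835), without Tsk replicate 6 (-1.33, edgeR adjusted p = 0.0514) and with a muscle score added as covariate (-1.44, edgeR adjusted p = 0.0583), and adjusted p ranged from 1.38e-06 to 0.0835 over all settings.

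Col17a1, the transmembrane collagen also known as BP180, was the most abundant junction gene per exon length. Its libraries stood at 1209, 869 and 819 CPM in wild type and 972, 614 and 611 in Tsk. The groups overlapped, since Tsk replicate 4 lay above 2 of the 3 wild-type libraries. Col17a1 had a log2 fold change of -0.40 ± 0.26 that did not pass (edgeR adjusted p = 0.447), with a 95% interval from -1.0 to 0.20. The interval, like the others given here, is for 1 gene alone and is not adjusted for the number of genes.

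The sequences just upstream of the annotated starts of these 2 collagen genes are printed because Col7a1 and Col17a1 encode the anchoring fibril collagen and the transmembrane collagen of the junction and only Col7a1 passed. They come from RefSeq (GRCm38.p6), and the promoter set used here matched 4 of the 8 genes by name. Bases inside annotated exons were left off. Capitals mark matches to 4 motifs, searched on both strands. The GC box was searched as GGGCGG. The TATA box was searched as TATAAA. A SMAD element was searched as CAGACA. The AP-1 motif was searched as TGANTCA.
Col7a1, chr9:108953336-108953585, plus strand: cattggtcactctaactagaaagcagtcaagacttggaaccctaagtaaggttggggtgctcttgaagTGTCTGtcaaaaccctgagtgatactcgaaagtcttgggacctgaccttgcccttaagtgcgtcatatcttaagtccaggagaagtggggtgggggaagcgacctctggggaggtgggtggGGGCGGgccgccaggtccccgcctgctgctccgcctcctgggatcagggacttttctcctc
Col17a1, chr19:47692095-47692292, minus strand: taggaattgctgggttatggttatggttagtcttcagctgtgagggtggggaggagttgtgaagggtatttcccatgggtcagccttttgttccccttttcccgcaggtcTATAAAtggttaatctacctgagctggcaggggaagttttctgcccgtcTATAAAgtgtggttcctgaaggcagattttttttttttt

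The 250 bases of Col7a1 held 1 GC box, a motif found in 33% of all promoter windows of that length, and 1 SMAD element on the opposite strand, found in 17%. The 198 bases of Col17a1 held 2 TATA boxes, and 9.82% of windows of that length held at least 1. Those 198-base windows end at the RefSeq start of each gene, with exon bases kept. The Col17a1 window ends farther upstream of its RefSeq start, so the positions are not alike. Neither sequence held the AP-1 letters, which 6.73% of 250-base and 5.41% of 198-base windows contain. No motif overlapped another. G and C made up 56.4% of the Col7a1 window and 45.5% of the Col17a1 window. A match describes the letters and is not a binding site.

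Itga6 and Itgb4 encode the α and β chains of the hemidesmosome integrin, which binds laminin outside and plectin inside the cell. Itga6 stood at 242, 192 and 195 CPM in wild type and 218, 179 and 126 in Tsk, where replicate 6 was the lowest of all libraries and replicate 4 lay within the wild-type range. Its log2 fold change was -0.26 ± 0.21 (edgeR adjusted p = 0.543, 95% interval -0.75 to 0.22). Itgb4, whose long cytoplasmic tail is the docking site for plectin, stood at 221, 158 and 155 CPM in wild type and 158, 108 and 120 in Tsk. The groups overlapped, with Tsk replicate 4 level with wild-type replicates 2 and 3. Itgb4 had a log2 fold change of -0.47 ± 0.20 and did not pass (edgeR adjusted p = 0.246).

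The laminin chains did not pass either. Lama3, the α chain of the epidermal laminin, stood at 128, 78.6 and 89.6 CPM in wild type and 79.5, 54.0 and 58.9 in Tsk. The groups overlapped by a narrow margin, with Tsk replicate 4 just above wild-type replicate 2. Its log2 fold change of -0.62 ± 0.22 was the largest after that of Col7a1 and did not pass (edgeR adjusted p = 0.155, 95% interval -1.12 to -0.13). Lamb3, the β chain, stood at 97.4, 72.1 and 68.1 CPM in wild type and 71.1, 51.5 and 51.9 in Tsk, again with Tsk replicate 4 above the lowest wild-type library. Lamb3 had a log2 fold change of -0.45 ± 0.19 (edgeR adjusted p = 0.228, 95% interval -0.87 to -0.02). The annotated span of Lamb3 holds the genes G0s2 and Hsd11b1 on the opposite strand, with up to 732 and 254 counts in a library. Their counts equalled at most 66.4% and 23% of those of Lamb3. The strand setting of the counting is not given in the sources used here. A same-strand transcript of unknown coding status inside the Lamb3 span, Gm37691, held counts equal to at most 14.6% of those of Lamb3.

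The plakins Dst and Plec link the hemidesmosome to keratins. Both genes also make isoforms in muscle and nerve from other start sites, and the gene-level counts do not tell the isoforms apart. Dst, on chromosome 1 from 33908225 to 34308661, stood at 2191, 2444 and 2146 CPM in wild type and 1754, 1659 and 1509 in Tsk. All 3 Tsk libraries lay below all 3 wild-type libraries. The log2 fold change of Dst was -0.46 ± 0.21 and did not pass (edgeR adjusted p = 0.270, 95% interval -0.95 to 0.02). DESeq2 gave the same value and called it (adjusted p = 0.0242), while the adjusted p of Dst ran up to 0.586 under other settings.

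Plec stood at 28, 35.1 and 35.3 CPM in wild type and 23.1, 24.1 and 24.3 in Tsk. The Tsk libraries lay close together, at 23.8 ± 0.630 CPM, and below each wild-type library. Its log2 fold change was -0.46 ± 0.13 and did not pass (edgeR adjusted p = 0.0901, 95% interval -0.75 to -0.17). Plec passed without wild-type replicate 1 (-0.54, edgeR adjusted p = 0.0319), and its adjusted p ran from there to 0.478 over all settings. The gene, on chromosome 15 from 76170974 to 76232574, rests on 446 to 568 counts a library and overlaps Parp10 on the same strand. The counts of Plec and Parp10 added up to a whole number, within 0.002, in all 6 libraries, so some reads were split between them and the Plec level is uncertain. Parp10 itself averaged 20.5 ± 3.95 CPM in wild type and 19.8 ± 1.22 in Tsk.

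With library totals alone as the scaling, the median of all genes moved to 0.25 and all 8 members stayed below 0, from -1.01 for Col7a1, which passed (edgeR adjusted p = 0.0229), to -0.01 for Itga6. Dst and Plec then stood at -0.19 and -0.17.

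**Figure D2:**
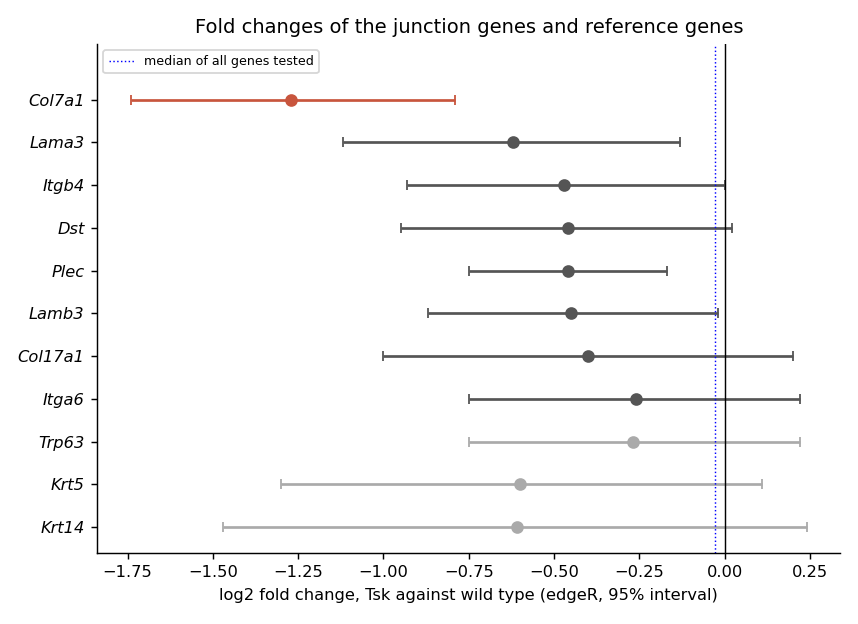
Log2 fold change of Tsk over wild type (horizontal axis) with its 95% interval from edgeR for the 8 junction genes and the basal keratinocyte genes Trp63, Krt5 and Krt14. Red marks the gene past the threshold and the dotted line the median of all genes tested, at -0.03; the interval of Col7a1 ends at -0.79, and that of Col17a1 reaches 0.20.

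Levels were compared between genes as CPM per kilobase of annotated exon, which understates genes with exons that skin does not use, such as Dst with 41.2 kilobases of exon. In wild type Col17a1 led with 161 ± 35.3 CPM per kilobase, followed by Dst with 54.9 ± 3.91. Itgb4 (25.4 ± 5.37), Itga6 (23.2 ± 3.10) and Col7a1 (22.1 ± 3.17) formed the next group of CPM per kilobase and did not differ beyond their spread. Lamb3 at 12 ± 2.40 and Lama3 at 9.19 ± 2.42 CPM per kilobase also lay within each other's spread, and Plec was last at 1.81 ± 0.229. In Tsk the order was similar, with Col17a1 at 122 ± 34.5 and Dst at 39.9 ± 3.00 CPM per kilobase. Col7a1, at 9.19 ± 2.21 CPM per kilobase in Tsk, no longer stood with the integrin chains (19.3 ± 5.07 for Itga6 and 18.3 ± 3.77 for Itgb4) but within the spread of Lamb3 (8.80 ± 1.70).

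Ratios of partner genes within a library do not depend on library scaling. The log2 ratio of Col7a1 to Col17a1 was -2.20, -2.13 and -1.88 in wild type and -3.12, -3.16 and -2.57 in Tsk, without overlap. The difference was -0.88, with a two-sided exact permutation p of 0.1, the smallest that 3 against 3 libraries allow (0.4 after adjustment over the 12 such comparisons made). The ratio of Itga6 to Itgb4 was 0.25 ± 0.11 in wild type and 0.42 ± 0.33 in Tsk on the log2 scale (exact p = 0.5, adjusted 0.6). For the laminin chains, the log2 ratio of Lama3 to Lamb3 was 0.31 ± 0.16 against 0.14 ± 0.06 (exact p = 0.3, adjusted 0.6). The log2 ratio of Dst to Plec was 6.11 ± 0.18 against 6.10 ± 0.14 (exact p = 0.9, adjusted 0.9). A p of this size does not show that the ratios were alike.

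**Figure D3:**
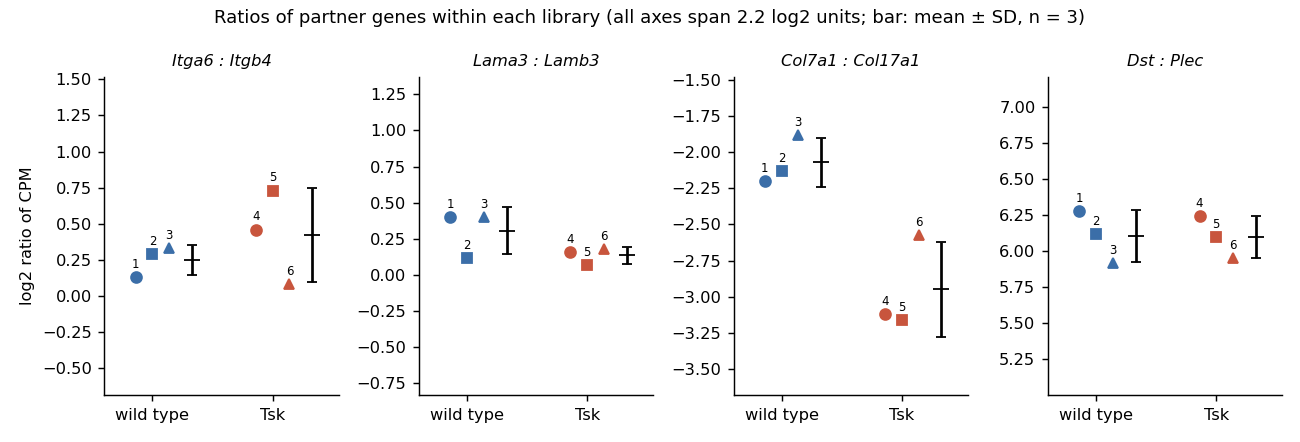
Log2 ratio of CPM between partner genes within each library (vertical axes, each spanning the same range) for 4 pairs, with libraries numbered by replicate and black bars for mean ± SD. The Col7a1 to Col17a1 ratio lies between -2.20 and -1.88 in wild type and between -3.16 and -2.57 in Tsk, and the other 3 pairs overlap between the groups.

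The 10 basal keratinocyte markers give the RNA level of genes typical of the cells that carry hemidesmosomes, not the number of these cells. None of the 10 passed in edgeR or DESeq2, 2 had an unadjusted edgeR p under 0.05 (Itga3 at -0.61 and Igfbp2 at 1.04), 8 were below 0, and their median log2 fold change was -0.28. Their summed level ran from 4112 to 6555 CPM in wild type and from 3010 to 5078 in Tsk, and no marker was at 0 in any library. Igfbp2 rested on 5 to 42 counts a library, and Itga3 is also one of the other junction genes below. Without Tsk replicate 4 edgeR called 1, Itga3, lower (-0.82, edgeR adjusted p = 0.0436). The keratin genes Krt5 and Krt14, which form the filaments that plectin anchors, stood at -0.60 ± 0.31 (edgeR adjusted p = 0.325) and -0.61 ± 0.38 (edgeR adjusted p = 0.411). Trp63, the transcription factor of basal cells, stood at -0.27 ± 0.21 (edgeR adjusted p = 0.540). Wild-type replicate 1 and Tsk replicate 4 had the highest basal marker sums of their groups, and the same 2 libraries were the highest of their groups for Col7a1, Col17a1, Itga6, Itgb4, Lama3 and Lamb3. Dst and Plec did not follow this order in wild type, where replicates 2 and 3 were highest in turn.

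Set against the mean log2 level of these markers in the same library, Col7a1 stood at 0.90 ± 0.16 in wild type and -0.21 ± 0.28 in Tsk (difference -1.11, exact permutation p = 0.1, adjusted 0.4). Lama3 also separated the groups on this measure, at -0.33 ± 0.18 against -0.76 ± 0.08 (difference -0.43, exact permutation p = 0.1, adjusted 0.4). The differences of the other 6 members ran from -0.29 for Itgb4 to -0.11 for Itga6, with overlapping groups. The reference mattered: against the mean of 12 general epithelial markers the differences ran from -1.37 for Col7a1 to -0.37 for Itga6, and 7 of the 8 members, all but Plec, showed no overlap (exact permutation p = 0.1, the smallest possible, adjusted 0.114 over the 8). On that measure Lama3 stood at -0.69, Itgb4 at -0.55, Dst at -0.54, Lamb3 at -0.52 and Col17a1 at -0.49, and Plec at -0.53 (exact permutation p = 0.3). How many of all genes showed no overlap against either marker reference was not counted. The 10.6% given above is for CPM, so the 7 of 8 has no background here. With the basal marker score as a covariate in edgeR, Col7a1 stood at -1.16 and passed (edgeR adjusted p = 0.0219), and no other member did.

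Markers of other cell types were compared between the groups in the same way. Of 12 suprabasal keratinocyte markers 5 passed as higher and none as lower, beside 2.72% and 0.696% of all genes tested. The 5 were Lor, Krtdap, Cdsn, Dsc1 and Tgm1, all genes of the cornifying layers. The others did not pass, 2 of the 12 were below 0, and the median log2 fold change was 0.55. Without wild-type replicate 3, 1 of the 12 was called. Their summed level was 1710 to 2224 CPM in wild type and 2136 to 3880 in Tsk. None of 12 general epithelial markers passed in edgeR or DESeq2 or had an unadjusted edgeR p under 0.05, and their sum was 2366 to 3287 CPM in wild type and 2667 to 4095 in Tsk. Fibroblast markers, which matter for Col7a1, had 2 of 10 higher (Mfap5 and Dpt) and none lower, while 8 had an unadjusted edgeR p under 0.05 and DESeq2 called 8, all higher. They had a sum of 6257 to 10985 CPM in wild type and 18554 to 42335 in Tsk. Most of this sum was Col1a1, Col3a1 and Col1a2, named after their values were seen. These stood at 2454, 2215 and 1374 CPM in wild-type replicate 1 and at 20075, 12114 and 9364 in Tsk replicate 6. None of these collagens passed in edgeR, and DESeq2 called each higher. Skeletal muscle markers, which matter for Dst and Plec, had 0 of 12 past the threshold and 10 below 0, while 8 had an unadjusted edgeR p under 0.05, DESeq2 called 10 (9 lower) and edgeR called 9 without wild-type replicate 1. They summed to 158237, 286680 and 252540 CPM in wild type and 124673 to 151323 CPM in Tsk, so wild-type replicate 1 had the least muscle RNA of its group. Plec was lowest in that library within wild type, but within Tsk it was lowest in replicate 4, which had the most muscle RNA. Dst was highest within wild type in replicate 2 (2444 CPM), which had the most muscle RNA. Replicates 1 and 3 stood at 2191 and 2146 CPM, the reverse of their muscle order. Within Tsk, Dst and the muscle sum both fell from replicate 4 to 5 to 6. With the muscle score as a covariate Dst stood at -0.38 (edgeR adjusted p = 0.339) and Plec at -0.28 (edgeR adjusted p = 0.419). Schwann cell markers, whose cells also use Itga6, Itgb4 and Dst, had 1 of 10 higher (Pmp22, 0.93 ± 0.19; DESeq2 also called 1), with sums of 214 to 321 CPM in wild type and 318 to 509 in Tsk. Endothelial markers, whose cells also carry Itga6, had 3 of 10 higher (Vwf, Tek and Lyve1; DESeq2 called 4), with sums of 199 to 286 CPM in wild type and 360 to 527 in Tsk. Without wild-type replicate 3, 1 fibroblast marker and no Schwann cell or endothelial marker was called, and without wild-type replicate 1 these counts were 3, 4 and 2. Without Tsk replicate 5 or 6, 1 fibroblast and no Schwann cell marker was called, and without wild-type replicate 2 no Schwann cell marker was. No marker of these 6 lists was at 0 in any library. The part of the fibroblast, Schwann and endothelial levels in the junction results was not tested.

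**Figure D4:**
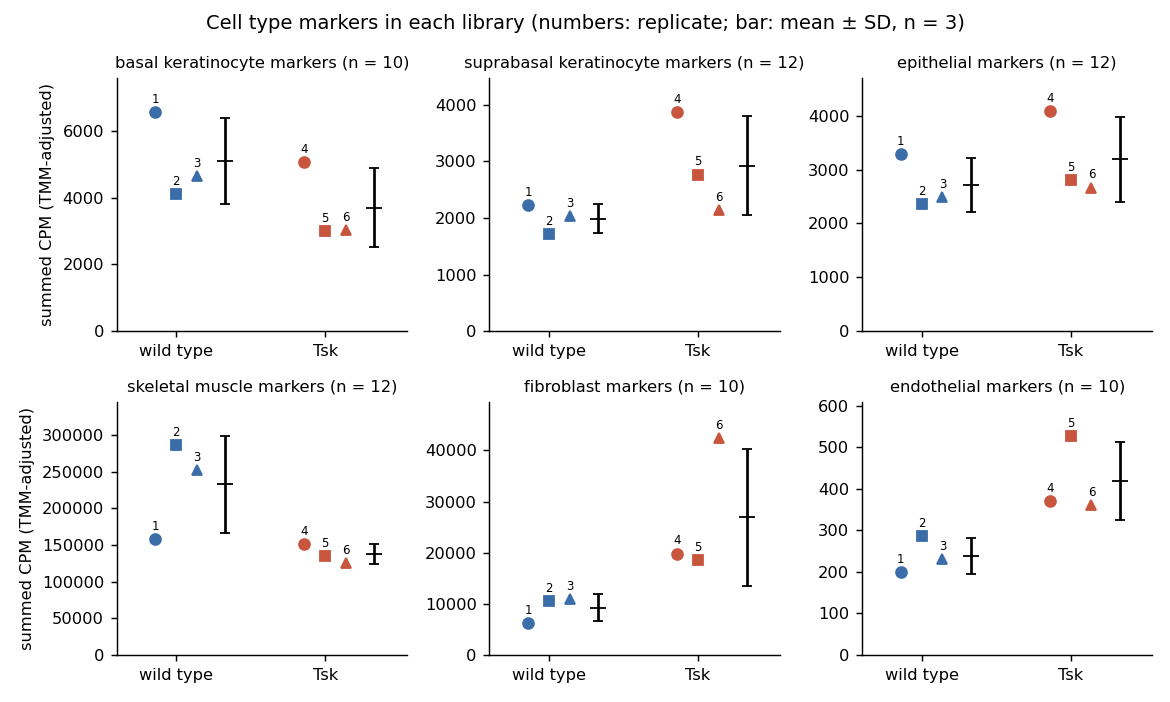
Summed level of the markers of 6 cell types in CPM (vertical axes, from 0) in each library, with replicate numbers and mean ± SD. Basal keratinocyte sums overlap between the groups, fibroblast and endothelial sums are higher in every Tsk library, and wild-type replicate 1 lies close to the Tsk libraries in its muscle sum of 158237.

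Of 21 other genes of the junction and its basement membrane, 3 rose and none fell, beside 2.72% and 0.696% of all genes tested. Their median log2 fold change was 0.05. Lamb1, a laminin β chain of vessels and dermis, rose by 1.05 ± 0.19 (edgeR adjusted p = 0.0223), from 57.2 ± 11.4 to 119 ± 20.4 CPM. Nid1, which links laminin to type IV collagen networks, rose by 1.46 ± 0.32 (edgeR adjusted p = 0.0461), from 189 ± 75.4 to 519 ± 128 CPM. Frem1, a protein of the basement membrane beneath the epidermis, rose by 1.66 ± 0.30 (edgeR adjusted p = 0.0245) at a low level of 1.89 ± 0.386 to 5.98 ± 1.90 CPM. Each of these 3 genes passed in 3 of 6 fits that dropped a single library, and none of the 21 did without wild-type replicate 3 or Tsk replicate 6, and 1 did without Tsk replicate 5. DESeq2 called 5 of the 21, with Ecm1 higher and Grip1 lower beside these 3, and without Tsk replicate 4 edgeR called Itga3 lower. Lama5, Itga3, Col4a5 and Grip1 were lower in every Tsk library without passing, with log2 fold changes of -0.25 ± 0.15, -0.61 ± 0.18, -0.33 ± 0.13 and -1.0 ± 0.26. Of all genes tested, 10.6% were lower in every Tsk library. Hspg2 and Ecm1 were higher in every Tsk library without passing, at 0.43 ± 0.21 and 0.68 ± 0.19. These 6 genes were named after their values were seen.

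Collagen VII and laminin are trimmed by proteases and cross-linked after secretion, and Col17a1 is shed from the cell surface. Of 12 genes of these steps, 2 rose and 1 fell, beside 2.72% and 0.696% of all genes tested. Their median log2 fold change was 0.29. Bmp1, the protease that removes the propeptide of collagen VII and trims the epidermal laminin, rose by 1.23 ± 0.19 (edgeR adjusted p = 0.0156), from 56.8 ± 7.93 to 133 ± 29.6 CPM. Mmp14, a membrane-bound metalloproteinase, rose by 1.26 ± 0.26 (edgeR adjusted p = 0.0378), from 48.1 ± 12.9 to 115 ± 33.9 CPM. Tgm2, a transglutaminase known to cross-link collagen VII, fell by 0.89 ± 0.17 on the log2 scale (edgeR adjusted p = 0.0314), from 320 ± 16 to 172 ± 30.4 CPM. When single libraries were dropped, Bmp1 passed in 5 of 6 fits, Tgm2 in 2 and Mmp14 in 1. No gene of the list was called without wild-type replicate 3. DESeq2 called 4 of the 12, with Serpinh1, named after its values were seen, beside these 3 (0.68, DESeq2 adjusted p = 0.0132). In edgeR Serpinh1 stood at 0.67 ± 0.19 and did not pass (edgeR adjusted p = 0.0935). The sheddases Adam9, Adam10 and Adam17, named after their values were seen, stood at 0.06 ± 0.14, 0.29 ± 0.13 and 0.15 ± 0.11 and did not pass.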

How the data were processed

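The authors deposited expected counts per gene for 6 libraries, of which 30.1 to 32.6% per library differed from a whole number by over 0.001, and they were rounded before testing. STAR, Partek 7.0, bcl2fastq 2.19.1.403 and the build mm10 are named in the submitters' processing notes; how reads were assigned to genes is not given in the sources used here. Each deposited CPM differed by at most 0.312% from the count scaled to the library total. The authors' TMM-normalised signal was that CPM times 1 factor per library. The deposited TPM values sum to 470308 per library and were not used for levels.

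The test was edgeR 4.0.16 (R 4.3.3), a robust quasi-likelihood F-test with TMM factors (0.823 to 1.03 in wild type, 1.06 to 1.13 in Tsk) and the default filter (minimum count 10, total 15), on all 6 libraries. The SE is the fold change divided by the square root of F. The edgeR procedure was tested on counts simulated from the means and dispersions of these libraries, each library drawn independently. Such counts hold no shared shift in tissue mix, so that test cannot address how the calls depend on single libraries. No 2 libraries of a group agreed within sampling noise (chi-square per degree of freedom of at least 8.54). Log2 levels used a prior count of 2. Counts are reads without molecular identifiers, so SDs and intervals do not separate molecules from copies. Coordinates are mm10, and starts of the 8 genes equal those of GENCODE M21, which gave ends and exon lengths; each deposited stop lies 1 base past the GENCODE end. Alternatives were other scalings, filters, DESeq2 1.42.0, limma 3.58.1, covariates and leaving out each library. Named genes were all 8 members, members of the lists past the threshold or else their most abundant ones, Krt5, Krt14, Trp63 and Fbn1, and the genes closest in pattern; Parp10, which overlaps Plec, and the genes said in the text to be so were named after their values were seen. The members and lists were chosen with earlier results of these data known. A gene on these lists and its ratio are not reported here and were left out of the counts.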

Additional observations from a re-analysis of the deposited data

How the results depend on the processing

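Col7a1 stayed below 0 in every setting run and passed in 18 of 21, and no other member passed in more than 1. The number of members called was 0 with the skeletal muscle covariate (Col7a1 at -1.44, edgeR adjusted p = 0.0583), 2 with DESeq2 (Dst at -0.46 joining Col7a1) and from 0 to 2 with 1 library left out, where Col7a1 ran from -1.41 to -1.09 and Plec, which joined it without wild-type replicate 1, from -0.54 to -0.39. All genes called, 683 with the settings reported, numbered 1791 with library totals alone, 1157 with no filter on low counts, 63 with the muscle covariate, 1592 with DESeq2, 1916 and 1836 with limma-trend on deposited CPM plus 0.5 and plus 2, 1279 with limma-trend on deposited TMM values, and 63 to 1381 with 1 library left out. With library totals alone 1695 of the 1791 calls were higher, against 544 of 683. The cause of these moves was not tested. With 1 library left out the log2 ratio of Dst to Plec ran from -0.11 to 0.08 and Itga6 against the basal markers from -0.27 to 0.02, so neither has a stable sign. Trp63 turned to 0.00 with limma-trend on deposited CPM, at both pseudocounts, and with 1 library left out the epithelial gene Perp ran from -0.01 to 0.36 and the wound keratin Krt17 from -0.02 to 0.39. No paired analysis was possible because the groups share no replicate number. Each member had at least 446 counts in every library.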

Other observations

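Markers of wounded epidermis and of the growing hair follicle were read from the same libraries. Of 7 tested members of the wound list none passed in edgeR, with a median log2 fold change of -0.27. An unadjusted edgeR p under 0.05 was found for 2, and DESeq2 called 2. With 1 library left out, only Krt6b of these 7 passed in edgeR, in 1 of 6 fits. Counting all 10 listed genes, 1 or 2 were called in each such fit. The most abundant members of the list, Krt6a and Krt17, stood at -0.27 ± 0.22 and 0.19 ± 0.24. Krt6b and S100a9, the 2 genes DESeq2 called and named after their values were seen, lay lower in every Tsk library, at -5.63 ± 1.23 (edgeR adjusted p = 0.0572) and -2.21 ± 0.57 (edgeR adjusted p = 0.0722). Counts of Krt6b were 189, 13 and 377 in the wild-type libraries, against 8, 2 and 4 in Tsk. S100a8, Sprr1b and Il1b were too low to test with all 6 libraries, and each was lower in every Tsk library. S100a8 (-3.96, edgeR adjusted p = 0.0291) and Il1b (-4.76, edgeR adjusted p = 0.0493) were the 2 wound genes called without Tsk replicate 4. Counts of S100a8 were 14, 10 and 17 in the wild-type libraries against 0, 1 and 1 in Tsk, those of Il1b 21, 41 and 9 against 0, 1 and 1, and those of Sprr1b 11, 10 and 25 against 6, 2 and 3. Of 8 tested hair follicle genes 4 rose and none fell, beside 2.72% and 0.696% of all genes tested. Dlx3, a transcription factor of the hair matrix, stood at 1.87 ± 0.29. The inner root sheath keratins Krt25, Krt27 and Krt71 stood at 4.77 ± 0.74, 2.58 ± 0.51 and 3.74 ± 0.74. DESeq2 called 3 of the list and not Krt71 (DESeq2 adjusted p = 0.0576). Tchh, the most abundant gene of the list and the 1 below 0, stood at -0.16 ± 0.25 (edgeR adjusted p = 0.779). Tchh was named after its values were seen. Without wild-type replicate 3 no hair follicle gene was called, and without wild-type replicate 2, Tsk replicate 5 or Tsk replicate 6 there were 2. The keratins Krt25, Krt27 and Krt71 rest on wild-type means under 1 CPM, of 0.123, 0.307 and 0.532. They met the filter on low counts only through the Tsk libraries, where they are high. The count of 4 is therefore no measure of the follicle list as a whole. Msx2 and Hoxc13, named after their values were seen, stood at 0.99 ± 0.48 and 0.71 ± 0.29 without passing.

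Among 10289 tested genes with a mean log2 CPM from 3 up, the 5 whose log2 levels were closest to those of Col7a1 over the 6 libraries were Ptpn2, Gm4841, CT010467.2, Gm43788 and Cacfd1, with Pearson's r of 0.988 to 0.990, given as a description since all values share the same libraries and the group difference. Of these, Gm4841 fell by 2.38 ± 0.29 (edgeR adjusted p = 0.00792), from 36.2, 28.6 and 37.5 CPM in wild type to 7.57, 3.65 and 8.47 in Tsk. The 5 closest to the mean standardised level of the other 7 members were Hnrnpd, Aatf, Thoc2, Jag2 and Rin1, with r of 0.989 to 0.998, and none of these 5 passed. Jag2, a Notch ligand, stood at 126, 104 and 102 CPM in wild type and 102, 74.9 and 69.8 in Tsk. Both sets were led by genes that are in none of the junction or keratinocyte lists.

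The Plec level is a value to look at again: 1.81 CPM per kilobase of exon in wild type, against 54.9 for its relative Dst and 161 for Col17a1 in the same libraries.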
